A study of Mus musculus with 24 samples.

Results

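Lung of 10-week-old mice was set against liver, kidney and white adipose tissue (WAT) of the same age to find which transcripts were higher or lower in lung than in each of the other 3 tissues. All animals were male C57BL/6J mice with no treatment and no transgene, and RNA of each sample was hybridised alone on an Agilent 1-colour (Cy3) array of mouse transcripts. The comparison used the 3 Lung 10W arrays and the 9 Liver 10W, Kidney 10W and WAT 10W arrays, which are 12 of the 24 arrays of the series. The other 12 arrays hold the same tissues at 90 weeks and enter only where that age is named. The arrays were chosen by label alone. The labels call the samples separate, but they do not say whether 1 mouse gave several tissues or from which depot the fat was taken.

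The lung is built of airways that end in alveoli. Club cells and ciliated cells line the airways, secreting protective proteins and moving mucus. Flat alveolar type 1 cells carry gas exchange, and alveolar type 2 cells make surfactant, the mixture of lipids and the proteins SP-A, SP-B, SP-C and SP-D that keeps alveoli from collapsing. Alveoli are wrapped by a dense capillary bed and patrolled by resident macrophages, and the tissue is also rich in passing leukocytes. In the mouse, heart muscle extends along the pulmonary veins into the lung. Liver and kidney, by contrast, carry most of the body's gluconeogenesis and part of its fatty acid oxidation.

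A level below is the log2 signal of a probe minus the 75th percentile of the log2 signals of its array, so that 0 is a bright but common signal, and levels of different probes are not set against each other. The 75th percentile itself lay at 844 to 914 units on the lung arrays, against 259 to 307 on liver, 460 to 618 on kidney and 763 to 819 on WAT, and 58.6 to 69.8% of probes were well above background per array. The number of arrays, 3 per tissue, limits the precision. The 3 lung arrays correlated with each other at 0.9935 to 0.9943 over all probes, with WAT at 0.8732 to 0.8882, with kidney at 0.8069 to 0.8117 and with liver at 0.7549 to 0.7712. Each tissue was on a slide of its own, so tissue and slide cannot be told apart, and for this reason only differences of at least 4-fold (2 on the log2 scale) were called.

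WAT 10W replicate 1 stood apart from its group. It held 1680 entries at least 4-fold above both other young WAT arrays, where the other young arrays held 3 to 117 such entries. Among them were genes of epididymis and testis, such as the sperm chromatin proteins Prm1 at 4.46 against -3.55 and -1.41 and Prm2 at 5.68 against -2.68 and -0.05 in replicates 2 and 3, and the beta-defensin Defb42 at 7.26 against -5.74 and -2.24. A summed level is the log2 of the sum of the unlogged levels of a list's tested genes on 1 array. A single bright gene can set it, so it is not a measure of cell number. The summed level of the epididymis and testis list ran from -1.19 to 7.85 over the WAT arrays and from -1.42 to -1.29 over the lung arrays, with 0 of its 6 tested genes higher in lung. Ciliary genes were high on the same array, as shown under the airway genes. For the gene lists, counts against each tissue are therefore also given without this array where they changed.

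Of 32352 tested entries (a gene symbol with its brightest probe, or a probe without a symbol), 1184 (3.66%) were higher in lung than in each of the 3 tissues, with each difference at least 4-fold and each adjusted p under 0.05 by limma. Fewer, 284 (0.878%), were lower in lung than in each tissue. In bulk tissue, fewer cells of a type and less RNA per cell cannot be told apart. Against the equal-weight mean of the 3 tissues, 2739 entries (8.47%) were higher and 2412 (7.46%) lower. The higher share was thus 80.7% of the first pair of counts and 53.2% of the second, and it was 97.5% and 88.2% when the arrays were scaled to 7 spike-in probes instead, a scaling that moved the median difference of all entries from -0.24 to 0.87. Without WAT replicate 1, 1152 entries (3.56%) were higher than each, 1068 of them among the 1184, and 287 lower, 259 of them among the 284.

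Genes with a symbol made up 851 of the higher entries (841 without WAT replicate 1) and 166 of the lower ones. The tissue nearest to lung was WAT for 446 of the 851, liver for 240 and kidney for 165. For 122 of these genes no array of any other tissue was well above background. Because 495 of the 1184 entries passed the filter on dim probes only through lung, they had to differ, and counts and medians over groups of genes are given as descriptions. Among all tested symbols, 4.59% were higher in lung than in each tissue, 0.9% were lower, and the median of lung minus the mean of the others was -0.09. Over all 32352 entries, all 3 lung arrays lay above the other 9 young arrays in 12.69% and below them in 20.2%. The counts of each group below are to be read against these values. Where a list below gives no count of genes that passed the filter through lung only, it held at most 1. The groups themselves are lists of genes by cell type or function, chosen with earlier results of these data known.

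Surfactant protein genes and other genes of alveolar type 2 cells were among the named genes furthest above the other tissues. Of 14 genes on that list, 11 were higher in lung than in each tissue, 0 were lower, and the median of lung minus the mean of the others was 6.2, with 2 genes passing the filter through lung only. Sftpb, which encodes SP-B, and Sftpa1, which encodes SP-A, are shown with the 250 bases before their RefSeq start (assembly GRCm38.p6, plus strand, chr6:72304360-72304609 and chr14:41131538-41131787), because these windows hold CTCAAG, the core recognised by the lung and thyroid factor NKX2-1. Capitals mark CTCAAG and GCAAACA, the latter being a forkhead motif, TGTTTGC, on the opposite strand, and no marked motif overlaps another.
Sftpb: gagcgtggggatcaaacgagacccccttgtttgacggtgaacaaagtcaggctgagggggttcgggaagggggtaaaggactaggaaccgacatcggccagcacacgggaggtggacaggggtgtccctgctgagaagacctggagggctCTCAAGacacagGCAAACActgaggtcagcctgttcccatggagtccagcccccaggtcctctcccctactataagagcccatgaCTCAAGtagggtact
Sftpa1: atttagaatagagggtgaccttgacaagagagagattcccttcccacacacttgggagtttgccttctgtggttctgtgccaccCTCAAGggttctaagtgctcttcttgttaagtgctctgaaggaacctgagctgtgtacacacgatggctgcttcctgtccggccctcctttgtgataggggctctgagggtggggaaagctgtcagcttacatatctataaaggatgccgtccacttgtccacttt
In the Sftpb window CTCAAG began 100 and 15 bases before the start and GCAAACA 88 bases before it, and in the Sftpa1 window CTCAAG began 166 bases before the start. Over the 32851 upstream windows of the same length in the table, 13.3% held CTCAAG and 4.3% held TGTTTGC on either strand. Counted by gene, as the lists are, the shares were 15.2% and 4.9% of 27025 genes. Of the 11 type 2 genes with a sequence, 2 held CTCAAG (these same genes), and of 13 genes on the cardiac list described further on, 5 did. Sftpc and Sftpd had no entry. A match is a description of these letters and not a binding site.

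Sftpc, which encodes the hydrophobic SP-C, read 9.15, 9.14 and 9.16 on the 3 lung arrays, and -4.96, -6.26 and -7.20 on the WAT arrays, of which 1 was well above background. No liver or kidney array was well above background for it. The 3 lung arrays were nearly level and far above the other 9. Where a tissue's arrays are below background, its level is only a ceiling, so the fold is written as a lower bound, taken against the mean of, per array, the higher of the probe's own value and the lowest signal of any probe well above background. On that basis Sftpc was at least 14260-fold higher in lung than in each tissue, with a largest adjusted p of 9.7e-09 by limma. Such bounds hold for the processed signal only: with normexp background correction the differences of the 15 higher and 5 lower named genes described by a bound were all smaller than that bound, at 3.59 to 11.11 on the log2 scale for the 15, whose bounds were 4.59 to 12.66.

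Sftpb (NM_147779) behaved alike, with 8.03, 8.01 and 8.05 in lung and no array of another tissue well above background. It was at least 6479-fold higher, with adjusted p of 2.3e-09 or less against each tissue. Sftpa1 (NM_023134) read 8.02, 7.93 and 8.05 in lung and -3.13, -2.77 and -1.38 in liver, a difference of 10.42 (adjusted p = 6.6e-09), and Sftpd, which encodes the collectin SP-D, read 7.92, 7.89 and 8.10 in lung and -1.84, -1.33 and -1.38 in liver, a difference of 9.49 (adjusted p = 6.9e-11). Lung did not overlap any other tissue in these genes, and liver was the nearest tissue for Sftpa1 and Sftpd. Slc34a2, a phosphate transporter of type 2 cells, read 3.30, 3.12 and 3.45 in lung against -4.16, -4.56 and -4.19 in kidney, a difference of 7.60 (adjusted p = 0.00024). Cxcl15, a chemokine also called lungkine, read 4.99, 4.87 and 4.79 in lung and -4.29, -4.32 and -3.79 in liver, a difference of 9.01 (adjusted p = 1.4e-09).

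Of the 14 type 2 genes, 3 were not called, Abca3 and Napsa for their level in kidney and Lyz1 for its level in WAT. Abca3, the lipid transporter of the lamellar body, read 5.98, 5.87 and 5.98 in lung but 6.53, 6.55 and 6.50 in kidney. Napsa, the protease that processes SP-B, was higher in kidney (7.18, 7.16 and 7.25) than in lung (4.38, 4.53 and 4.94). Lyz1 was above every other array but only by 1.28 over WAT. Of 18 genes of surfactant lipid synthesis and storage, only 2 were higher in lung than in each tissue, namely Lpcat1, which makes the saturated phosphatidylcholine of surfactant, at 1.30, 1.13 and 1.30 against -3.03, -3.37 and -3.15 in WAT, and the phospholipase Pla2g1b. Chpt1, a cholinephosphotransferase, was lower in lung than in each tissue, at 2.29, 2.33 and 2.05 against 4.59, 4.73 and 4.54 in liver, a call that was lost with quantile normalization and with spike-in scaling. The lipid list as a whole had a median of 0.30, with 2 genes passing the filter through lung only. The rate-controlling Pcyt1a read 3.11, 3.10 and 3.20 in lung and 3.56, 3.66 and 3.55 in liver.

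Genes of alveolar type 1 cells were higher too. Of 12 listed genes 11 were tested, 9 were higher in lung than in each tissue and all 11 were above every other young array (12.69% of all entries were), with a median of 5.53. Akap5, an anchoring protein for protein kinase A, read 5.12, 4.83 and 4.43 in lung and -4.69, -3.04 and -3.52 in WAT, a difference of 8.54 (adjusted p = 6.7e-07). Aqp5, a water channel, read 5.52, 5.50 and 5.63 in lung against -1.79, 0.11 and -0.49 in WAT and was not above background in liver or kidney. Ager, the receptor for advanced glycation end products, lay at 7.05, 6.86 and 6.93 in lung and between 1.33 and 2.22 on the other 9 arrays, the latter all well above background. The mucin-like Pdpn and Lmo7 stayed under the 4-fold limit, by 1.73 over WAT and 1.92 over kidney.

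**Figure D1:**
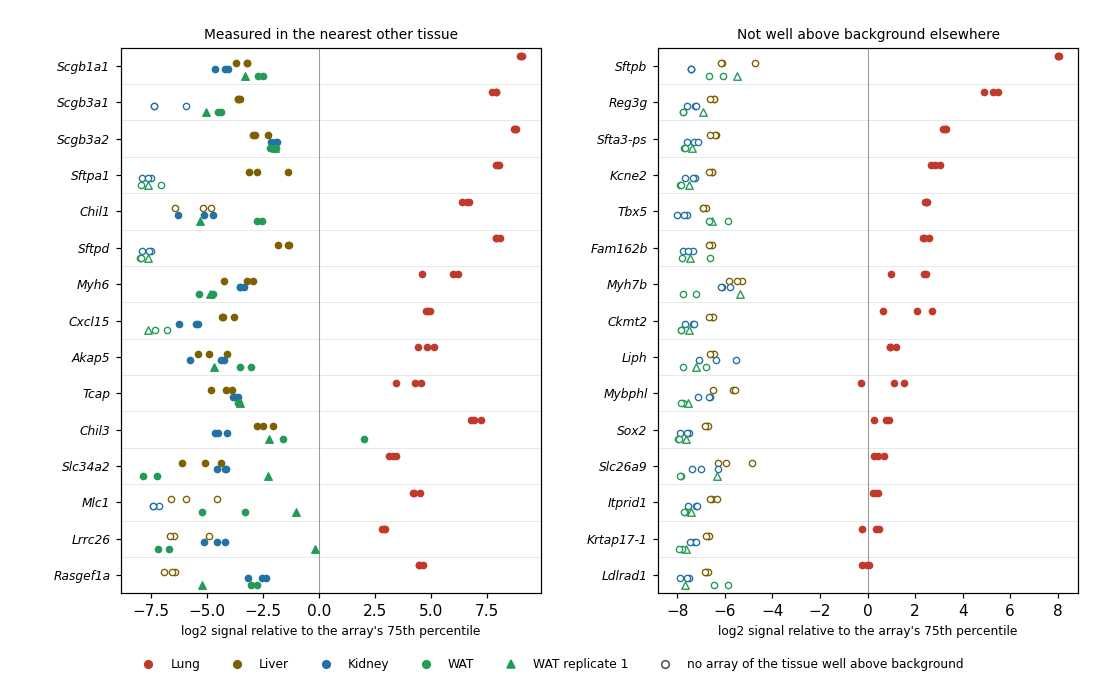
Levels (log2 signal relative to the 75th percentile of the array, horizontal axes) of the 30 named genes higher in young lung than in each other young tissue, 1 point per array, coloured by tissue. The left panel holds genes measured in the nearest other tissue and the right panel genes not well above background elsewhere (open points mark a tissue with no array well above background, triangles WAT replicate 1), and the 3 lung points lie to the right of the other 9 in each row.

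Secretory proteins of the airway were also far above the other tissues. Of 12 club and secretory cell genes, 8 were higher in lung than in each tissue and the median was 7.88, with 2 genes passing the filter through lung only. Scgb3a1, a secretoglobin, is shown with the 250 bases before its start (GRCm38.p6, plus strand, chr11:49663345-49663594), because it holds both motifs, with capitals as above: CTTGAG is CTCAAG on the opposite strand.
Scgb3a1: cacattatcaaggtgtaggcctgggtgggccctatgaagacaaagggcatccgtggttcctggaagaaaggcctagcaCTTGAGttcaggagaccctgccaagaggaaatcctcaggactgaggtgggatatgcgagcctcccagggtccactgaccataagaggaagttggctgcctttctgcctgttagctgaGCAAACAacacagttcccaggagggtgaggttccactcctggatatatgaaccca
CTTGAG began 172 and GCAAACA 55 bases before the start. CTCAAG was found for 4 of the 8 genes of the list that had a sequence (Bpifa1, Reg3g, Scgb3a1 and Upk3a), and TGTTTGC for 3 of 8. Among all higher genes with a sequence, 646 of 851, CTCAAG was held by 15.6% against 14.7% of the tested genes with a sequence, and TGTTTGC by 7.6% against 4.5%. Another forkhead motif, TGTTTAC, was held by 3.7% against 3.0%, and by 0 of the 8 club and secretory genes. Scgb1a1 and Scgb3a2 had no entry.

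Scgb1a1, the club cell secretory protein, read 9.03, 9.0 and 9.06 in lung and -3.27, -2.71 and -2.5 in WAT, the nearest tissue. Lung stood 11.86 above WAT (adjusted p = 3.6e-10) and 12.53 ± 0.19 (SE, 3 lung against 9 other arrays) above the mean of the 3 tissues. Scgb3a1 read 7.91, 7.89 and 7.75 in lung against -3.60, -3.54 and -3.62 in liver, a difference of 11.44 (adjusted p = 1.4e-09), and Scgb3a2 read 8.79, 8.76 and 8.72 against -2.11, -1.91 and -1.87 in kidney, a difference of 10.72 (adjusted p = 4.4e-11). In all 3 secretoglobin genes lung was high on every array and the other tissues stayed below 0. Reg3g, an antibacterial lectin, read 5.49, 5.29 and 4.91 and was at least 941.7-fold higher, with no array of another tissue above background. Chil1, a chitinase-like protein, read 6.62, 6.41 and 6.71 in lung against -5.32, -2.52 and -2.75 in WAT, a difference of 10.11 (adjusted p = 1.8e-06) that was 9.22 without WAT replicate 1.

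Other secretory genes were shared with another organ. Cyp2f2, the cytochrome of club cells that activates naphthalene, read 8.45, 8.44 and 8.38 in lung but 9.31, 9.01 and 8.99 in liver. The cholecystokinin receptor Cckar was higher in kidney (3.06, 3.24 and 3.47) than in lung (2.67, 2.56 and 2.54). The gel-forming mucin Muc5b read 4.06, 3.99 and 3.65 in lung against -5.12 and -4.62 on 2 WAT arrays but 5.35 on WAT replicate 1, and it was higher than each tissue only without that array, which brings the list to 9 of 12. Of the 20 genes of mucosal defence, 9 were higher than each tissue (Lyz2, Bpifa1, Reg3g, Sftpa1, Sftpd, Muc1, Cxcl15, Cxcl17 and Il33), 3 having passed the filter through lung only, and the median was 5.91. Without WAT replicate 1 this count was 13, with Ltf, Lcn2, Wfdc2 and Muc5b added. Cxcl17, a mucosal chemokine, lay at 2.90, 3.13 and 2.86 in lung and between -7.88 and -5.51 elsewhere, whereas the defensin Defb1 was highest in kidney (5.87, 5.69 and 5.92 against -5.32, -4.65 and -5.20 in lung).

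Genes of motile cilia followed. Of 16 ciliated cell genes, 12 were higher in lung than in each tissue and 14 were above every other array (12.69% of all entries were), with a median of 5.92 and 4 genes passing the filter through lung only. For Ccdc153 (chr9:44240427-44240676), Dynlrb2 (chr8:116504765-116505014) and Sntn (chr14:13670626-13670875) the 250 bases before the start are shown (GRCm38.p6, plus strand), because each holds GTTGCC, the core of the motif bound by RFX factors, which act in ciliogenesis. Capitals mark GTTGCC alone, and a CTTGAG in Ccdc153 and in Dynlrb2 and a GTAAACA in Sntn are left in lower case.
Ccdc153: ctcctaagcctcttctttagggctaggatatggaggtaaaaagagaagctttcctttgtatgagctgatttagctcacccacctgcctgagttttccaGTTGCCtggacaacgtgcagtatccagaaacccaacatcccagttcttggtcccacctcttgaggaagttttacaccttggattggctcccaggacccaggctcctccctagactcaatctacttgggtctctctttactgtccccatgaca
Dynlrb2: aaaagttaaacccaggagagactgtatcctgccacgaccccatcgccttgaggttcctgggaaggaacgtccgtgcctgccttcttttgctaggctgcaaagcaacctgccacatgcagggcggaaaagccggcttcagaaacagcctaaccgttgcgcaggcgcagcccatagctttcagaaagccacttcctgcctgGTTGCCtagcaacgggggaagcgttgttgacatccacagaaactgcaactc
Sntn: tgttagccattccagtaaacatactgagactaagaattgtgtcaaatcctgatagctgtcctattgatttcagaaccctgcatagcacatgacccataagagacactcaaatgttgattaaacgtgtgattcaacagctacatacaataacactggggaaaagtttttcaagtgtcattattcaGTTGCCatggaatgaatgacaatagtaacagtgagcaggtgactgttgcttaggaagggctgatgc
GTTGCC began 152, 51 and 66 bases before the start in this order. On either strand it was held by 7 of the 12 list genes with a sequence (also by Cdhr3, Hydin, Mcidas and Tekt1), by 16.4% of the higher genes, by 12.2% of the tested genes and by 11.8% of all 27025 genes with a window. Foxj1 had no entry.

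Foxj1, the forkhead factor that drives motile cilia, read 2.94, 3.18 and 2.72 in lung, -5.57, -5.01 and -4.29 in liver, -4.84, -4.62 and -4.74 in kidney, and 1.19, -6.74 and -1.36 in WAT. All lung arrays were above the other 9, but the WAT arrays were widely spread, with replicate 1 the highest and replicate 2 the lowest. Lung stood 5.25 above WAT (adjusted p = 0.013). Ccdc153, a coiled-coil protein, and Dynlrb2, a dynein light chain, showed the same order within WAT, at 2.65, -7.47 and 0.02 and at 1.80, -3.11 and -0.52, against 4.82, 4.93 and 4.54 and 4.89, 4.96 and 4.72 in lung. Tmem212 did so as well, at 2.11, -8.10 and -0.48 in WAT and 3.85, 3.89 and 3.46 in lung. Tppp3, a tubulin-binding protein, was instead lowest on WAT replicate 1 (4.27, 5.26 and 5.11 in WAT against 6.95, 7.04 and 6.89 in lung), and without that array the difference was 1.78, under the 4-fold limit, leaving 11 of 16. Dnaic1, a dynein intermediate chain, was higher in liver (2.10, 2.06 and 1.92) than in lung (0.96, 1.1 and 0.74).

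**Figure D2:**
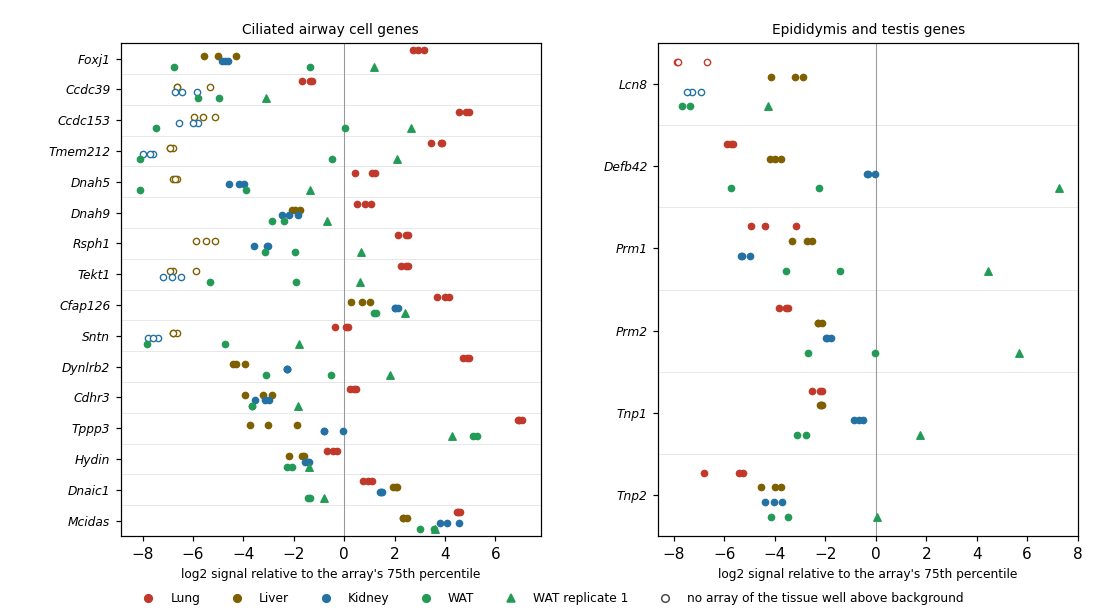
Levels (log2 signal relative to the 75th percentile of the array) by array for genes of ciliated cells in 1 panel and of epididymis and testis in the other, coloured by tissue with WAT replicate 1 as a triangle. WAT replicate 1 lies far above the other 2 WAT arrays in the second panel (Defb42 at 7.26 against -5.74 and -2.24), and in most ciliated cell genes it is the WAT point nearest to lung.

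Markers of basal airway cells and of neuroendocrine cells did not separate lung from the other tissues. Of 4 basal and 5 neuroendocrine genes, 0 were higher in lung than in each tissue, with medians of 0.48 and 0.50. Krt5, the keratin of basal cells, read -1.54, -1.14 and -1.77 in lung and 1.75, -3.25 and -3.36 in WAT, so that the groups overlapped. Krt15 was called without WAT replicate 1, at -1.68, -0.54 and -1.22 against -4.26, -2.76 and -2.60 in kidney.

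Of 24 transcription factors of lung development, 8 were higher in lung than in each tissue and 19 were at least 4-fold above the mean of the others, with a median of 3.31 and 3 genes passing the filter through lung only. The T-box factor Tbx5 read 2.46, 2.52 and 2.42 in lung and was not above background elsewhere, at least 138.8-fold higher (largest adjusted p = 6.7e-10). Sox2, a factor of the conducting airway, read 0.92, 0.79 and 0.29 and was at least 39.9-fold higher. Tbx4 lay at 3.25, 3.22 and 3.15 against -7.69, -3.24 and -5.33 in WAT, and Foxf1, a factor of lung mesenchyme and endothelium, at 5.30, 5.28 and 5.80 against -0.41, -0.82 and -0.93 in liver. In these genes the lung arrays did not overlap any other. Nkx2-1, the factor that marks the lung lineage, gave a smaller step, at -0.45, -0.57 and -0.27 in lung against -2.75, -3.12 and -3.23 in liver, a difference of 2.60. Its neighbour on chromosome 12, the transcript Sfta3-ps, read 3.30, 3.25 and 3.17 and was at least 237-fold higher.

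Several lung factors were also high in another tissue. Foxa1 read 3.63, 3.29 and 3.08 in lung and 2.5, 2.04 and 2.61 in liver, and Foxa2 3.73, 3.58 and 3.47 against 3.98, 2.65 and 2.98, while WAT was well above background on 0 and 1 of its 3 arrays. Irx3 was level with kidney (3.21, 3.10 and 3.11 against 3.29, 3.09 and 3.11). Sox9, a factor of the embryonic bud tip, was lower in lung than on any other array, at -4.32, -4.30 and -4.20 against -2.38, -3.89 and -3.45 in WAT, which missed the 4-fold limit. Foxp1 was called only with WAT replicate 1 in the group, at 2.08 over WAT with it and 1.77 without, which leaves 7 of 24.

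Hox genes are given by their place in the cluster. Of 16 tested genes of paralogue groups 1 to 6, 3 were at least 4-fold above the mean of the other tissues (Hoxa2, Hoxa5 and Hoxb5) and 5 below it, with a median of 0.18, whereas of 14 tested genes of groups 7 to 13, 0 were above and 12 below, with a median of -3.82. Hoxa5, which is needed for lung development, read 1.12, 0.81 and 0.94 in lung and -0.65, -0.56 and -0.62 in kidney. Hoxc9 read -8.04, -8.24 and -8.11 in lung, not above background, against 1.53, 1.58 and 1.48 in kidney and 1.01, 1.69 and 1.65 in WAT. Hoxa10 stood likewise at -7.75, -8.05 and -7.91 in lung and 3.39, 3.35 and 3.27 in kidney. Liver was not above background for Hoxc9 or Hoxa10 either, and 0 genes of the later groups were lower in lung than in each tissue. Of the 14 later genes, 5 were above background on all 3 lung arrays and 8 on 0. Those 8 passed the filter only through another tissue, where they were higher, so the list's counts and median are descriptions. With spike-in scaling 8 of the 14 later genes were below the mean of the others, with a median of -2.71.

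Among 24 ligands and receptors of the Wnt, Fgf, Bmp and hedgehog pathways, which direct branching and repair of the lung, 6 were higher in lung than in each tissue, with a median of 1.92. The filter was passed through lung only by 2 genes of this list. Wnt3a and Wnt7a read 0.34, -0.23 and -0.33 and 0.12, -0.70 and -0.60 in lung, and neither was above background in another tissue. Fgf7, a growth factor for alveolar epithelium made by fibroblasts, lay at 1.23, 1.27 and 1.05 against -1.98, -1.31 and -1.48 in WAT. Bmpr2, a receptor of the vessel wall, read 5.36, 5.29 and 5.34 and was 2.25 above WAT. Shh was at 0.59, 0.67 and 0.68 in lung and at -6.56 and -6.17 on 2 WAT arrays, but at 0.24 on WAT replicate 1. Fgf10 was higher in WAT (0.73, 1.85 and 1.88) than in lung (0.51, 0.38 and 0.44), and Bmp7 was below every other array, at -2.55, -2.05 and -2.37. Without WAT replicate 1, Wnt4 and the hedgehog-binding Hhip were added, giving 8.

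Most vascular genes were above the mean of the others in lung, but fewer were higher than each tissue. Of 18 endothelial genes, 7 were higher than each tissue (Tek, Eng, Erg, Ramp2, Calcrl, Icam2 and Vwf), 14 were at least 4-fold above the mean and 16 above every other array (12.69% of all entries were), with a median of 2.73. Calcrl, the receptor that works with Ramp2 to bind adrenomedullin, read 5.6, 5.50 and 5.66 in lung against 1.01, 1.15 and 0.84 in liver, a difference of 4.59. Vwf, the clotting factor stored by endothelium, read 5.37, 5.18 and 5.37 against 1.78, 2.89 and 3.37 in WAT. The general marker Pecam1 read 2.62, 2.66 and 2.95 in lung against 0.36, 1.19 and 1.62 in WAT, 1.69 apart. The count was 4 without WAT replicate 1, since Tek, Ramp2 and Erg were then 1.99, 1.85 and 1.73 above WAT, each with an adjusted p of 1.1e-05 or less.

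Of 15 genes of lung capillary cells, 4 were called (Fibin, Prx, Cd93 and Kit, or 3 without WAT replicate 1, when Cd93 was 1.90 above WAT), 12 were above the mean, and the median was 3.27. Kit, a receptor tyrosine kinase of the general capillary, read 3.21, 3.24 and 3.56 in lung and between -0.66 and 0.13 elsewhere. Car4, a carbonic anhydrase of the aerocyte, was instead lower in lung than in kidney (2.79, 2.81 and 3.12 against 3.29, 3.43 and 3.41), and Ednrb overlapped WAT. Of 13 fibroblast genes, 5 were called (Tcf21, Npnt, Itga8, Limch1 and Mfap4), with a median of 3.18. Itga8, an integrin, read 3.94, 3.93 and 3.79 against 0.28, 0.03 and 0.03 in liver, and Npnt, its matrix ligand, read 1.47, 1.44 and 1.46 against -0.26, -0.70 and -0.73 in kidney. Of 9 smooth muscle genes, 2 were called (Cnn1 and Myocd), with a median of 2.72, while the actin Acta2 was above every other array but by 0.53 over WAT. Cells of the mesothelium, which covers lung and fat alike, gave 0 called genes of 7 tested and a median of 3.40, and Msln, its best known marker, read 3.56, 4.24 and 4.70 in lung and 0.09, 4.91 and 3.94 in WAT.

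Of 24 genes of elastic fibres and basement membrane, 2 were higher than each tissue, the microfibril proteins Mfap2 (3.71, 3.90 and 4.25 against 0.55, 1.03 and 1.07 in WAT) and Mfap4 (2.90, 2.92 and 2.79 against 0.05, -0.20 and -0.12 in liver). Against the mean of the others 12 were higher, and the list median was 2.01. Elastin itself, Eln, read 1.25, 0.79 and 0.85 in lung and -0.49, 1.04 and 1.08 in WAT, so that lung and WAT overlapped. Col4a3 and Col4a4, collagens of the alveolar and glomerular basement membranes, were level with kidney or below it, at 0.59, 0.57 and 0.61 against 1.68, 1.45 and 1.33 for Col4a4.

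Leukocyte lists differed in how many genes were higher in lung. Of 12 alveolar macrophage genes, 5 were higher than each tissue (Ear1, Ear2, Chil3, Siglecf and Itgax) with a median of 3.40. Chil3, a chitinase-like protein of these macrophages, read 6.80, 6.92 and 7.25 in lung and -2.23, -1.61 and 2.03 in WAT, a difference of 7.60 (adjusted p = 4.9e-05) that was 6.79 without WAT replicate 1 and 8.92 without replicate 3, and the lectin Siglecf 1.22, 1.56 and 1.83 against -3.72, -1.12 and -2.11. Without WAT replicate 1, Ear1 and Ear2, eosinophil-associated ribonucleases of near-identical sequence that may share signal, were 1.92 and 1.67 above WAT and the count was 3. Mrc1, a receptor of many tissue macrophages, was lower in lung (1.78, 1.99 and 1.97) than in liver (2.56, 2.47 and 2.53).

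B cell genes gave 7 calls of 10 with a median of 3.58, and 2 passed the filter through lung only. Ms4a1, which encodes CD20, read 1.36, 1.02 and 0.13 in lung against -2.09, -3.53 and -3.56 in liver, and Vpreb3 read 3.87, 4.12 and 4.0 against -2.26, -2.57 and -2.52, while Pax5 did not separate. In most B cell genes replicate 3 was the lowest of the lung arrays. Natural killer cell genes gave 5 calls of 9 (Ncr1, Gzma, Nkg7, Klre1 and Klra8, with a median of 2.98 and 2 through lung only), led by the granzyme Gzma at 3.69, 4.71 and 3.15 against -0.91, -0.17 and 1.12 in WAT, and 2 calls without WAT replicate 1. T cell genes gave 3 calls of 9 (Cd3d, Cd3g and Cd8b1, median 1.73), the count being the same without WAT replicate 1 but with Tcf7 in the place of Cd3g, and their summed level was lower in lung (4.01 to 4.30) than in liver (5.46 to 5.95). Dendritic cell genes gave 3 of 7 (Ccl17, Ccl22 and Ccr7, median 2.66) and neutrophil genes 2 of 9 (S100a9 and Cxcr2, median 4.61), whose summed level of 6.26 to 7.34 in lung overlapped that in WAT (5.02 to 7.0). S100a9, a calcium-binding protein of neutrophils, varied widely, at 4.89, 5.38 and 6.50 in lung and -2.62, 0.09 and 5.79 in WAT, and its call was lost without WAT replicate 1, when lactoferrin (Ltf) was called in its place.

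Adhesion molecules that guide leukocytes gave 2 calls of 15 with a median of 1.78. Icam1, an integrin ligand of the vessel wall and of type 1 cells, read 2.59, 2.37 and 2.52 in lung and between -2.38 and -1.07 elsewhere, and Icam2 read 6.12, 6.14 and 6.33 against 2.93, 3.63 and 3.94 in WAT. Vcam1, by contrast, was 1.04 above liver, and Selp did not separate lung from the others. Ackr1 showed a difference of -2.98 from WAT.

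Genes of heart muscle were higher in lung as well. Of 14 cardiac genes, 12 were higher in lung than in each tissue, 13 were above the mean, and the median was 5.30, with 4 passing the filter through lung only. Myh6, the alpha myosin heavy chain of atrium and mouse ventricle, read 6.23, 5.98 and 4.60 in lung against -3.51, -3.51 and -3.32 in kidney, a difference of 9.05 (adjusted p = 5.0e-08), or 4.28 when the probes of the gene were averaged. The atrial light chain Myl7 read 6.14, 5.80 and 4.51, the atrial regulator Sln 5.15, 4.97 and 3.40, and the atrial peptide Nppa 3.69, 3.51 and 0.68. Lung replicate 3 was the lowest in each of these genes yet remained above the other 9 arrays. Genes of the ventricle differed among themselves. Myh7, the beta myosin heavy chain, was called at 1.00, 1.02 and 0.97 in lung, 4.74 above kidney, and the light chain Myl2 at -4.85, -3.68 and -3.71 with no other tissue above background. Myl2 lay so near background in lung that its call, counted among the 12, does not show a 4-fold difference. Myl3 overlapped WAT, and Nppb read -4.61, -5.07 and -5.33, not above the other tissues. Tcap, a sarcomere protein, read 4.29, 4.57 and 3.45 against -3.51, -3.56 and -3.59 in WAT, and Ckmt2, Myh7b and Mybphl, of striated muscle, were at least 88.8, 97.0 and 43.4-fold higher and were also lowest on replicate 3.

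The summed level of the cardiac list was 6.89 to 8.47 in lung, against 3.11 to 3.24 in WAT, 0.79 to 0.97 in liver and 0.82 to 0.87 in kidney. Of 8 tested skeletal muscle genes, only Ckm, which the heart also expresses, was called, at -0.78, -0.89 and -2.18 in lung, and the fast myosin Myh1 was not above background in lung, with a list median of 1.5. The source of the cardiac transcripts was not tested. Without WAT replicate 1, 11 cardiac genes were called, Myl2 being lost. Of 5 tested thymus genes 1 was called (Prss16) with a median of 0.03, of 4 tested cartilage genes 0 with a median of -0.01, and of 4 tested brown fat genes 0 with a median of 2.29. Ccl25, a chemokine of thymus and gut, was below every other array in lung, with a difference of only -0.26 from WAT.

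Other named genes were neither on a cell type list nor members of a pathway list. Mlc1, a membrane protein best known from astrocytes, read 4.26, 4.21 and 4.53 in lung against -1.04, -5.24 and -3.28 in WAT, a difference of 7.52 (adjusted p = 5.3e-05) that was 8.59 without WAT replicate 1 and 6.49 without replicate 2. Rasgef1a, a guanine nucleotide exchange factor, read 4.67, 4.49 and 4.46 against -2.35, -2.54 and -3.14 in kidney, a difference of 7.22, and Lrrc26, a subunit of potassium channels, read 2.91, 2.94 and 2.84, 7.51 above kidney (adjusted p = 0.0012), with WAT replicate 1 at -0.17 and the other WAT arrays at -7.19 and -6.67, and its difference from the nearest tissue was 6.32 without WAT replicate 2 and 6.58 without replicate 3. The lung arrays of each of these 3 genes lay close together and above the other 9 arrays. Fam162b, Liph, Itprid1, Krtap17-1 and Ldlrad1 were not above background in any other tissue and were at least 136.2, 51.4, 32.0, 28.95 and 24.1-fold higher.

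**Figure D3:**
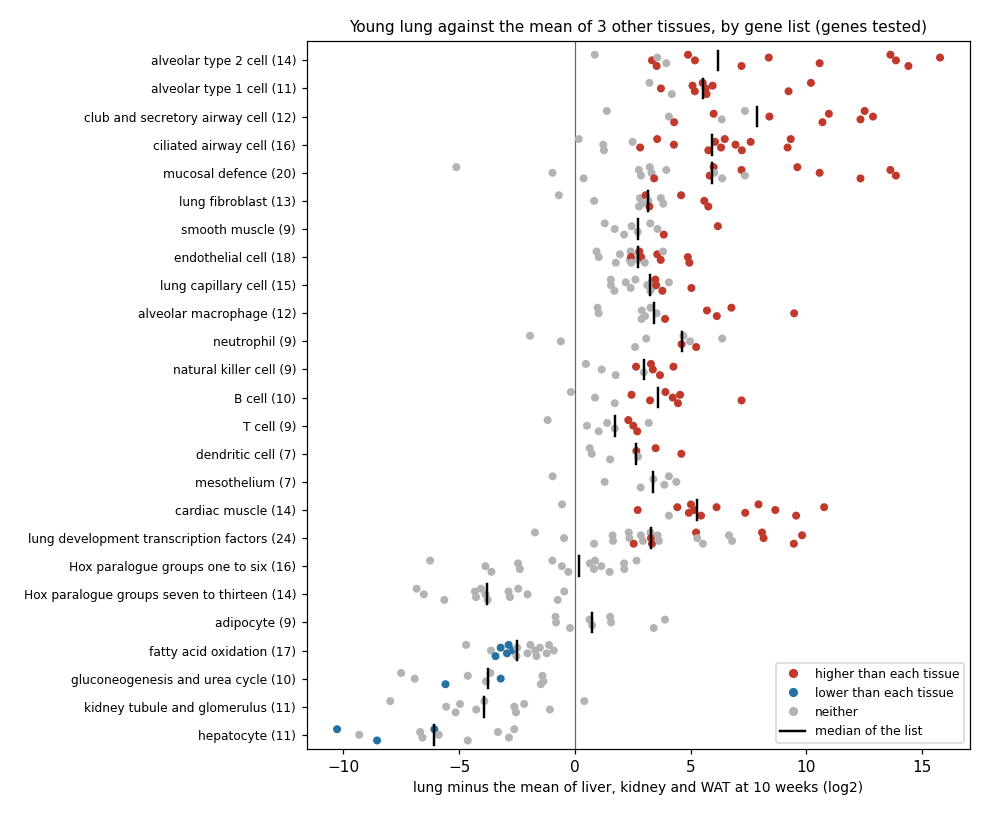
Lung minus the mean of liver, kidney and WAT at 10 weeks (log2, horizontal axis) for each tested gene of 25 lists, 1 point per gene, red where the gene was higher in lung than in each tissue, blue where it was lower than each, grey otherwise, with a black bar at the list's median. The medians run from 7.88 for club and secretory cells to -6.07 for hepatocyte genes, and red points make up 12 of 14 genes in the cardiac row and 11 of 14 in the type 2 row.

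Markers of liver and kidney were mostly below the mean of the others in lung, a mean that includes the organ they mark. On each of the 2 lists only 5 of 11 genes were above background on all 3 lung arrays. The rest passed the filter only through another tissue. Of 11 hepatocyte genes, 11 were at least 4-fold below the mean of the others and 3 were lower in lung than in each tissue, and their summed level was 2.28 to 3.89 in lung, overlapping WAT (3.59 to 5.09), against 12.64 to 12.79 in liver. Lung replicate 2 had the highest reading of several, such as Fgb at -4.06 against -8.01 and -8.0 and Alb at -0.53 against -3.08 and -2.81. Of 11 kidney genes 9 were below the mean, with a median of -3.91, but 0 were lower than each tissue, and their summed level in lung (1.57 to 1.78) was above that in liver (0.77 to 1.22). Of 9 adipocyte genes, 0 were called in either direction against each tissue, but the summed level of 6.94 to 7.55 in lung lay between WAT (10.81 to 11.29) and both liver (5.37 to 6.12) and kidney (5.36 to 5.51), and Adipoq, the adipocyte hormone, read 2.76, 2.87 and 1.68 in lung against 7.36, 8.35 and 8.33 in WAT. The part of fat cells in the lung results was not tested. Red cell genes overlapped between tissues, with a summed level of 5.30 to 7.75 in lung and 0 of 4 tested genes called.

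Transport genes of airway and alveolus gave 3 calls of 16 (Aqp5, Slc26a9 and Clca1) and a median of 1.81, with 2 genes passing the filter through lung only. Slc26a9, a chloride transporter, read 0.68, 0.29 and 0.44 in lung and was at least 34.7-fold higher, with no other tissue above background. Clca1, a secreted protein of mucous cells, differed widely between lung arrays, at 2.28, 0.09 and -2.94. The sodium channel subunits that clear alveolar fluid stood next to kidney: Scnn1a read 5.12, 5.20 and 5.30 against 3.85, 3.70 and 3.88, and Scnn1g 3.89, 3.59 and 3.55 against 1.77, 1.82 and 1.64. Kcne2, a potassium channel subunit, read 2.82, 2.66 and 3.06 and was at least 180.7-fold higher. Cftr, the chloride channel of cystic fibrosis, was level with kidney at -0.17, -0.58 and -0.60 against -0.50, -0.67 and -0.52.

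Foreign compound metabolism gave 3 higher genes of 21 tested (Cbr2 among them) and 1 lower (Cyp2e1), with a median of 0.61. Cbr2, a carbonyl reductase known from lung mitochondria, read 9.04, 9.04 and 9.06 in lung against 4.46, 5.56 and 5.37 in WAT. Cyp2e1, which oxidises ethanol, read 2.83, 3.52 and 2.83 in lung against 7.21, 8.18 and 8.33 in WAT and higher still in liver, a difference of -4.85 from WAT (adjusted p = 4.6e-07). Of the 13 angiotensin and bradykinin genes, 0 were higher than each tissue and 2 were lower, both being precursors of the active peptides. Agt, angiotensinogen, read -2.59, -2.75 and -3.13 in lung, 3.10, 3.23 and 3.20 in kidney, 5.02, 5.97 and 5.65 in WAT and 7.07, 7.17 and 7.18 in liver, at least 6.00 apart from lung in each (adjusted p against kidney = 8.8e-09). Kng1, kininogen, read -3.93, -3.71 and -3.40 in lung against -1.40, -1.05 and -0.41 in WAT. Ace, the converting enzyme, was above every other array, at 3.55, 3.76 and 4.15 against 2.46, 2.46 and 2.55 in kidney.

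The 15 named genes lower in lung than in each tissue included receptors, transporters and metabolic enzymes. Sucnr1, the succinate receptor, had the largest difference from its nearest tissue among the 10 measured on lung arrays, with -3.66, -4.10 and -5.34 in lung and 2.02 to 4.12 on the other arrays, a difference of -7.33 from liver (adjusted p = 4.5e-07). Slc6a13, a GABA transporter, read -2.62, -2.51 and -3.80 against 2.43, 3.25 and 3.28 in WAT, and Chdh, which oxidises choline, -4.97, -4.71 and -4.93 against 0.21, 0.07 and 0.31. Prlr, the prolactin receptor, lay at -3.55, -3.40 and -3.86 in lung and between 1.13 and 2.61 elsewhere. The acyl-CoA synthetase Acsm5 (-4.71), the epoxide hydrolase Ephx2 (-4.70) and the transcript 4931408D14Rik (-4.53) were lower than their nearest tissue by these log2 differences, with adjusted p of 4.1e-05 or less, and that of Acsm5 was -5.46 without WAT replicate 1. For Mettl7b, Ranbp3l, Kcnj16, Mmd2 and Msmp no lung array was well above background, and lung was at least 19.5, 11.6, 11.5, 6.24 and 6.10-fold lower.

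Of 17 genes of fatty acid oxidation, 15 were below every other young array, 10 were at least 4-fold below the mean of the others and 5 were lower than each tissue (among them Acads and Cpt2), with a median of -2.49. Over all tested entries, 20.2% were below every other young array. Acads, the short-chain acyl-CoA dehydrogenase, read 1.36, 1.42 and 1.32 in lung, 3.52, 3.98 and 3.96 in WAT and 4.87 to 5.07 in kidney and liver. Cpt2, of the carnitine shuttle, read 2.55, 2.54 and 2.51 against 4.27, 4.69 and 4.71 in WAT. Cpt1a was the exception above WAT, at 3.71, 3.50 and 3.89 in lung against 3.15, 3.39 and 3.18, and the regulator Ppara overlapped WAT. Without WAT replicate 1, 6 genes were lower than each tissue. These counts turned on the scaling: quantile normalization left 2 lower than each tissue and spike-in scaling 0, with 4 below the mean and a median of -1.38. Of 10 genes of gluconeogenesis and the urea cycle 7 were below the mean and 2 were lower than each tissue, with a median of -3.75. Pck1, which commits carbon to glucose in liver and kidney, read 2.72, 2.87 and 1.64 against 6.80, 7.52 and 7.46 in WAT. Pcx, pyruvate carboxylase, read 4.01, 3.75 and 3.53 against 6.76, 6.83 and 6.76 in kidney.

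**Figure D4:**
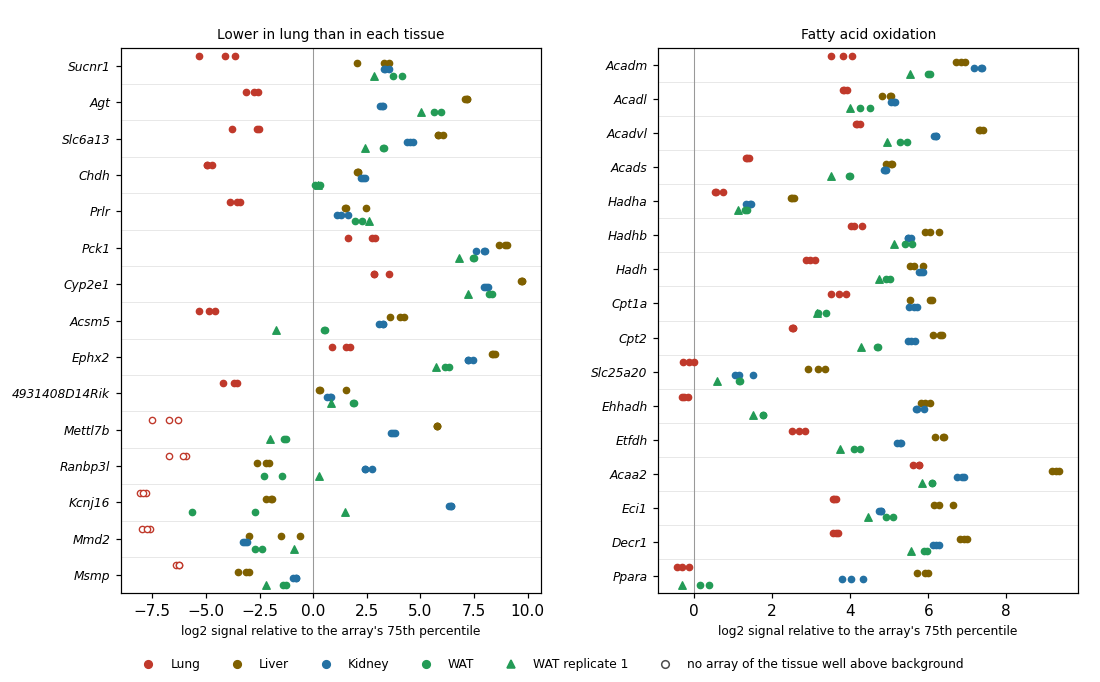
Levels (log2 signal relative to the 75th percentile of the array, horizontal axes) by array of the 15 named genes lower in lung than in each tissue (left) and of 16 fatty acid oxidation genes (right), 1 point per array, with open points for a tissue with no array well above background and triangles for WAT replicate 1. Lung lies left of the other tissues in each row of the left panel and in 14 of the 16 rows of the right panel, Cpt1a and Ppara being the exceptions.

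At 90 weeks, 945 entries (2.92%) were higher in lung than in each tissue by the same rule, and 727 were shared with the 1184 of 10 weeks, which is 61.4% of the young list and 76.9% of the aged list. Of the 45 named genes, 28 of the 30 higher and 12 of the 15 lower ones were called at 90 weeks too, with Chil3, Reg3g, Mettl7b, Kcnj16 and Mmd2 not called. The difference between lung and the mean of the others changed with age past an adjusted p of 0.05 in 9 named genes, and it was smaller at 90 weeks in all 9. The named genes were picked for large differences on the 10-week arrays, so a smaller difference at 90 weeks is partly built in by that choice. The share of all tested entries that changed in this way is not given. For 5 of the 9 genes (Reg3g, Liph, Krtap17-1, Kcne2 and Itprid1) no other young tissue was above background, so that these differences rest on values at background and their change is not a measured size. Kcne2 and Itprid1 moved by less than 1 on the log2 scale, and the other 7, Scgb3a1, Chil1, Sftpd, Rasgef1a, Reg3g, Liph and Krtap17-1, by more. List counts at 90 weeks were 9 of 14 for type 2 cells, 9 of 11 for type 1 cells, 7 of 12 for club cells, 13 of 16 for ciliated cells, 12 of 18 for endothelium and 11 of 14 for heart muscle, but 1 of 10 for B cells and 0 of 9 for T cells. These counts were not tested against those of 10 weeks. Such a count can fall because lung is lower or because another tissue is higher. The lung arrays of 90 weeks had 59.5 to 70.0% of probes well above background and 75th percentiles of 560 to 956 units. The young lung arrays had 68.2 to 69.8% and 844 to 914 units.

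**Figure D5:**
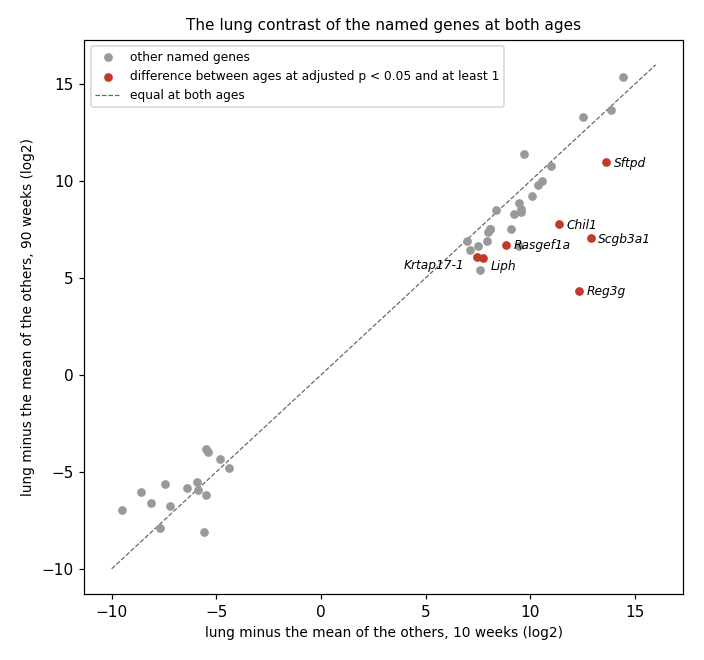
Lung minus the mean of the other 3 tissues (log2) at 10 weeks (horizontal axis) and 90 weeks (vertical axis) for the 45 named genes, with a dashed line of equality. The 7 red points changed with age by at least 1 with an adjusted p under 0.05, and each lies below the line, Reg3g furthest (12.35 at 10 weeks and 4.34 at 90 weeks). The genes were picked on the 10-week arrays, so a place of the higher genes below the line is partly built in.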

How the data were processed

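Arrays of mouse lung, liver, kidney and WAT were extracted by the authors with Agilent Feature Extraction 11.0.1.1. The deposited files give a background-subtracted intensity per spot in arbitrary units, with no normalization between arrays. The methods name a human array kit, but the file headers name a mouse design on mm9. Arrays of 1 tissue shared a slide that held no other tissue, so slide and tissue cannot be told apart.

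For each array, the 75th percentile of the log2 intensity over non-control probes was subtracted. Spots of a probe were averaged, probes had to be well above background on all 3 arrays of at least 1 young tissue, and 32994 of 56605 probes (58.29%) were matched by accession to 22911 mouse RefSeq symbols, with the brightest probe kept for each symbol. Entries without a symbol stayed in the test. Of 233 higher symbols with more than 1 probe, all probes were called for 153 and a probe lay below 0 for 8. Differences were tested on the 12 young arrays by linear models with eBayes moderation (R 4.3.3, limma 3.58.1), with Benjamini-Hochberg adjustment over all 32352 entries. A gene was called at a difference of 2 on the log2 scale with an adjusted p under 0.05, in all 3 comparisons or against the equal-weight mean. The change with age was fitted over all 24 arrays. P-values measure the spread between these samples, which may share animals across tissues.

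The 45 named genes were the 15 with the largest measured difference from the nearest tissue and the 15 with the largest lower bound among the higher ones, and 10 and 5 chosen likewise among the lower ones. Members of 40 lists of genes by cell type, tissue or pathway (497 genes) were named too. The lists, their members and the rules were chosen with earlier results of these data known. Sequences came from a RefSeq table of upstream windows on GRCm38.p6, which was not used for probe positions. Alternatives were normexp background correction (offset 16), quantile normalization, spike-in scaling, keeping dim probes, averaging over probes of the same symbol, fitting the 24 arrays together, a replicate block, the methods' t-test, other sizes of difference and each array left out. The steps were checked on simulated data. A few genes of the lists are counted but not reported here by name.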

Additional observations from a re-analysis of the deposited data

Results flagged for a closer look

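For 7 named genes the gap from lung to the average of liver, kidney and WAT was smaller at 90 weeks than at 10 weeks by at least 1 on the log2 scale, with an adjusted p under 0.05 by limma for the change itself. The named genes were picked for large gaps at 10 weeks, so some narrowing at 90 weeks is built in by that choice. The share of all tested entries with such a change is not given, so the 7 cannot be set against it. Scgb3a1, an airway secretoglobin, changed by -5.84, from 12.89 to 7.05 (adjusted p = 0.0043), and its mean level in lung was 7.85 at 10 weeks and 2.94 at 90 weeks. Reg3g, an antibacterial lectin, changed by -8.01, from 12.35 to 4.34 (adjusted p = 0.0051), with lung means of 5.23 and -2.10. In both genes the level in lung itself was lower at 90 weeks. No young liver, kidney or WAT array was well above background for Reg3g, so the gap of 12.35 and its change rest on background values and do not measure a size.

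Chil1 changed by -3.60, from 11.37 to 7.77 (adjusted p = 0.049), while its lung mean was 6.58 and then 6.35, and the means of liver, kidney and WAT were -5.47, -5.37 and -3.53 at 10 weeks and -1.06, -2.52 and -0.69 at 90 weeks. Sftpd changed by -2.67, from 13.64 to 10.97 (adjusted p = 0.00043), with lung means of 7.97 and 7.83 and kidney means of -7.65 and -1.39. Rasgef1a changed by -2.14, from 8.87 to 6.73 (adjusted p = 0.020), with lung means of 4.54 and 4.28 and WAT means of -3.67 and -0.68. At 10 weeks liver was not above background for Chil1 and Rasgef1a, nor kidney for Scgb3a1, nor kidney and WAT for Sftpd, so the gaps and changes of these genes rest partly on background values as well. Liph changed by -1.68, from 7.74 to 6.05 (adjusted p = 0.033), with lung means of 1.03 and 0.36, and Krtap17-1 by -1.40, from 7.48 to 6.08 (adjusted p = 0.0019), with lung means of 0.21 and -1.44. Neither was above background in another young tissue, so their gaps and changes do not measure a size either. Each age and tissue had 3 arrays, and the cause of these changes was not tested.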

How the results depend on the processing

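Counts of entries are given in the order higher in lung than in each tissue, lower than in each tissue, higher than the mean of the other tissues and lower than that mean, for which the reported values were 1184, 284, 2739 and 2412. Background correction with normexp gave 727, 146, 1627 and 1594. Scaling to spike-in probes gave 2592, 66, 5970 and 798. A limit of 1 on the log2 scale gave 2318, 2083, 5403 and 7182, and a limit of 3 gave 611, 75, 1367 and 865. The methods' t-test gave 1021 lower than the mean. Among entries with a symbol alone, a choice made after seeing the data like centring on the median and leaving WAT replicate 1 out of the list counts, 166 were lower than each tissue and 1437 lower than the mean. Leaving out each array in turn gave 1120 to 1201, 265 to 356, 2672 to 2770 and 2322 to 2497. A replicate block gave 1180, 282, 2740 and 2412. Samples with the same number did not deviate together (0 of 18 pairs correlated above 0.1). With 3 arrays per tissue this cannot show whether such samples came from 1 mouse. No named gene changed direction under any alternative run. Lrrc26 and Kcnj16 were not called by the methods' t-test, nor Msmp by spike-in scaling, where it was 1.68 lower in lung (-1.68 on the log2 scale). Averaging the probes of a gene moved Myh6 from 9.05 to 4.28, Prlr from -4.95 to -3.51 and Sftpb from 13.69 to 12.79, and normexp moved 33 of the 45 named differences by over 1.5 times. Leaving out WAT replicate 1 moved Kcnj16 from -5.63 to -3.74. The median of all entries was -0.24, and it was -0.38 with normexp, -0.11 with quantile normalization and 0.87 with spike-in scaling.

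Some list counts moved with the scaling. With normexp, higher genes numbered 2 for natural killer cells, 1 for T cells and 0 for thymus, and 0 hepatocyte genes were lower than each tissue. With spike-in scaling, higher genes numbered 14 for endothelium, 10 for capillaries, 8 for alveolar macrophages, 6 for neutrophils, 12 for transcription factors, 15 for mucosal defence, 8 for ion and water transport and 6 for adhesion, and the medians of angiotensin and bradykinin genes (-0.23) and red blood cell genes (-0.96) turned to 0.88 and 0.15. With quantile normalization, 7 capillary genes were higher. The cause of these differences was not tested. Signal over background limits the rest: fold values of genes not above background are lower bounds.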

Other observations

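Some genes higher in lung lay next to each other. Of the 851 genes, 162 (19.04%) were adjacent to another such gene among the tested genes of their chromosome, and of all 18535 tested genes 8.86% were adjacent to a higher gene, a difference that was not tested. They formed 77 runs, 7 of them of 3 or more genes, and the longest held 4 (A930001A20Rik, Gm9733, Sirpb1a and Sirpb1b on chromosome 3). Other runs were Sfta3-ps, Nkx2-1 and Pax9 on chromosome 12, Myh6, Mhrt and Myh7 on chromosome 14, and the chitinase-like genes Chia1, Chil3 and Chil4 on chromosome 3. Sftpc lay next to Lgi3 on chromosome 14, and Lgi3 was 6.4 above WAT. Several of these genes were not above background elsewhere, and how much probes of related or overlapping genes in a run share signal was not tested.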
